A study of Mus musculus with 92 samples.

Results

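Ilf2, Prmt5, Trim7, Hes7 and Abt1 are 5 of the 21887 mouse protein-coding genes on chromosomes 1 to 19, X and Y in the RefSeq table used here. They were chosen by the fold enrichment of STAG2 peaks and by the absence of STAG1 there: each lies nearest to one of the strongest places where the cohesin subunit STAG2, but not STAG1, had a peak in several cell types. Both measures are therefore given below as a description with no test. The comparison of STAG3 with STAG2 peak counts below is bound by the same choice. Each gene was described with the 20 kb to either side of it, a window of 45.1 to 65.1 kb, and no 2 windows overlapped.

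Chromatin immunoprecipitation with sequencing (ChIP-seq) was used to locate cohesin and CTCF in cultured mouse cells of a series from pluripotency to the male germline. The 30 peak lists analysed here held STAG2 in 13 wild-type libraries, STAG1 in 10, STAG3 in 3 and CTCF in 4 mutant pools. The other samples of the 92 in the series were not analysed here. By its title, the series concerns the mitotic STAG3 complex and the nucleus of the male germline.

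The BVSC line, which carries Blimp1-mVenus and Stella-ECFP reporters, gave the wild-type ESC (embryonic stem cells), EpiLC (epiblast-like cells) and, as labelled, d2PGCLC and d4c7PGCLC (primordial germ cell-like cells). Wild-type germline stem cells (GSC), self-renewing spermatogonial cells in culture, came from the AAG line with Acrosin-EGFP and beta-Actin-EGFP, so line and cell type cannot be told apart for GSC. The sorted fractions were BV-positive for PGCLC and AAG-positive for GSC. STAG2 had 2 lists each in ESC and EpiLC and 3 each in d2PGCLC, d4c7PGCLC and GSC, while STAG1 had 2 per cell type and STAG3 had 3 in GSC. CTCF was listed once for each of 4 AAG-line GSC genotypes, Stag3KO, Stag2Stag3dKO, Stag1Stag3dKO and Stag1Stag2dKO, each from pooled replicates. These 4 genotypes leave cells with both STAG1 and STAG2, with STAG1, with STAG2 and with STAG3. No wild-type CTCF list was used here.

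Cohesin is a protein ring that ties sister chromatids to each other and extrudes loops of DNA, and each ring carries a STAG subunit. CTCF is a DNA-binding insulator protein at which cohesin often stops. Transfer RNA (tRNA) genes are short genes read by RNA polymerase III, whose factor TFIIIC binds promoter elements inside the gene called the A box and the B box. In budding yeast, cohesin loading and condensin have been described at such genes. The 5 protein-coding genes have unlike roles: ILF2 acts in RNA metabolism, PRMT5 is an arginine methyltransferase with known roles in germ cells, TRIM7 is a ubiquitin ligase, HES7 is a repressor of the segmentation clock and ABT1 binds the TATA-binding protein.

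The strongest STAG2 peak of each window lay over a tRNA gene in all 13 STAG2 lists, for all 5 genes. A tRNA gene lay within 20 kb of all 5, against 1.06% of protein-coding genes (232 of 21887). The choice of the genes did not use tRNA annotation, but it used strong STAG2 peaks. Outside d2PGCLC, 43 to 94 of the 100 strongest STAG2 peaks per list lay on a tRNA gene. The share among the 5 is therefore bound to the choice and is a description. The 5 windows held 32 tRNA genes: 1 each at Ilf2 and Prmt5, 8 at Trim7, 7 at Hes7 and 15 at Abt1. STAG2 covered 29 of these 32 in all 13 lists and each of them in at least 1 list. Neighbouring tRNA genes can lie under 1 wide peak with 1 summit, so a covered tRNA gene need not be where STAG2 peaked. No STAG1 list covered 29 of the 32, and no CTCF list covered 31 of them. STAG3 peaks of at least 1 GSC list covered 10 of the 32.

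Sequence under these peaks is shown for Prmt5 and Ilf2, whose promoter entries the STAG2 peak at the tRNA gene covers in part or whole in all 13 lists, and for a tRNA gene next to the Abt1 window that a promoter entry holds whole. All are from RefSeq, build GRCm38.p6. The Prmt5 promoter (chr14:54517421-54517720, minus strand) opens with the first 25 bases of n-TRacg6, an arginine tRNA gene, in capitals. All 13 STAG2 lists covered this promoter, against 0 of 10 STAG1 lists, 2 of 3 STAG3 lists and 0 of 4 CTCF lists.
Prmt5 promoter: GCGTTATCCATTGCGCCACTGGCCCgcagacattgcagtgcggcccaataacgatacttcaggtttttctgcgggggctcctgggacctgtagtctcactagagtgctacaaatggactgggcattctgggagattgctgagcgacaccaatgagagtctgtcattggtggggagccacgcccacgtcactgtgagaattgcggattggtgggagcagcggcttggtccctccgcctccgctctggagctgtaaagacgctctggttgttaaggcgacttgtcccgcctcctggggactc
Read on the plus strand, those 25 bases hold a match to the A box, in capitals below, so that tRNA gene and Prmt5 run away from each other. An A box match on either strand stood in 34.4% of all 32851 promoter entries.
n-TRacg6 start: gggccagTGGCGCAATGGataacgc
The Ilf2 promoter (chr3:90475951-90476250, plus strand) begins 19 bases past n-TMcat11, a methionine tRNA gene. Its capitals are the 107 bases that lay under STAG3 peaks of GSC lists 1 and 3. STAG2 peaks of all 13 lists covered part of this promoter, and no STAG1 or CTCF list had a peak in it.
Ilf2 promoter: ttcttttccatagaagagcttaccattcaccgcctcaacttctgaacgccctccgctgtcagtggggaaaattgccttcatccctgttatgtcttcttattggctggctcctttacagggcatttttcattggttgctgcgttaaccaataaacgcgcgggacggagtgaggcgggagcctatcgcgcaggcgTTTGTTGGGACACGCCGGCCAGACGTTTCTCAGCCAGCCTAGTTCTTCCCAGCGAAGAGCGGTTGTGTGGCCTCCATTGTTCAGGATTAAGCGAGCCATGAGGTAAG
The tRNA gene n-TVcac9 (chr13:23446142-23446214, minus strand) lies just past the Abt1 window, 22276 bases from Abt1, and carries a B box match (GTTCGANNC, searched on both strands), in capitals. STAG2 covered it in 13 of 13 lists at a fold enrichment of 25.1 to 379, and no STAG1, STAG3 or CTCF list did. A B box match stood in 0.843% of all promoter entries (277 of 32851) and in no promoter entry of the 5 genes. Of other tRNA genes held whole by a promoter entry, n-TTagt9 and n-TRtcg5 had a B box match and n-TAagc16 had none. STAG2 covered each of these in 13 of 13 lists.
n-TVcac9: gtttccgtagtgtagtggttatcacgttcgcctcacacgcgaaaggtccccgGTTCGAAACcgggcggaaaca

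The lists differed in length, from 13698 to 84904 peaks for STAG2, 9641 to 42013 for STAG1, 12832 to 39681 for STAG3 and 39639 to 43877 for CTCF. STAG1 lists of GSC were the shortest, and the first STAG3 list held 12832 peaks against 38631 and 39681 in the others. The absence of a peak means that none passed the authors' threshold. Fold enrichment is the authors' value for each peak at its summit, and its median over a whole STAG2 list was 7.26 to 10.3. Reads of near-identical tRNA genes can be shared between copies, and how such reads were placed is not given in the sources used here, so values of single tRNA genes in the clusters are uncertain.

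**Figure D1:**
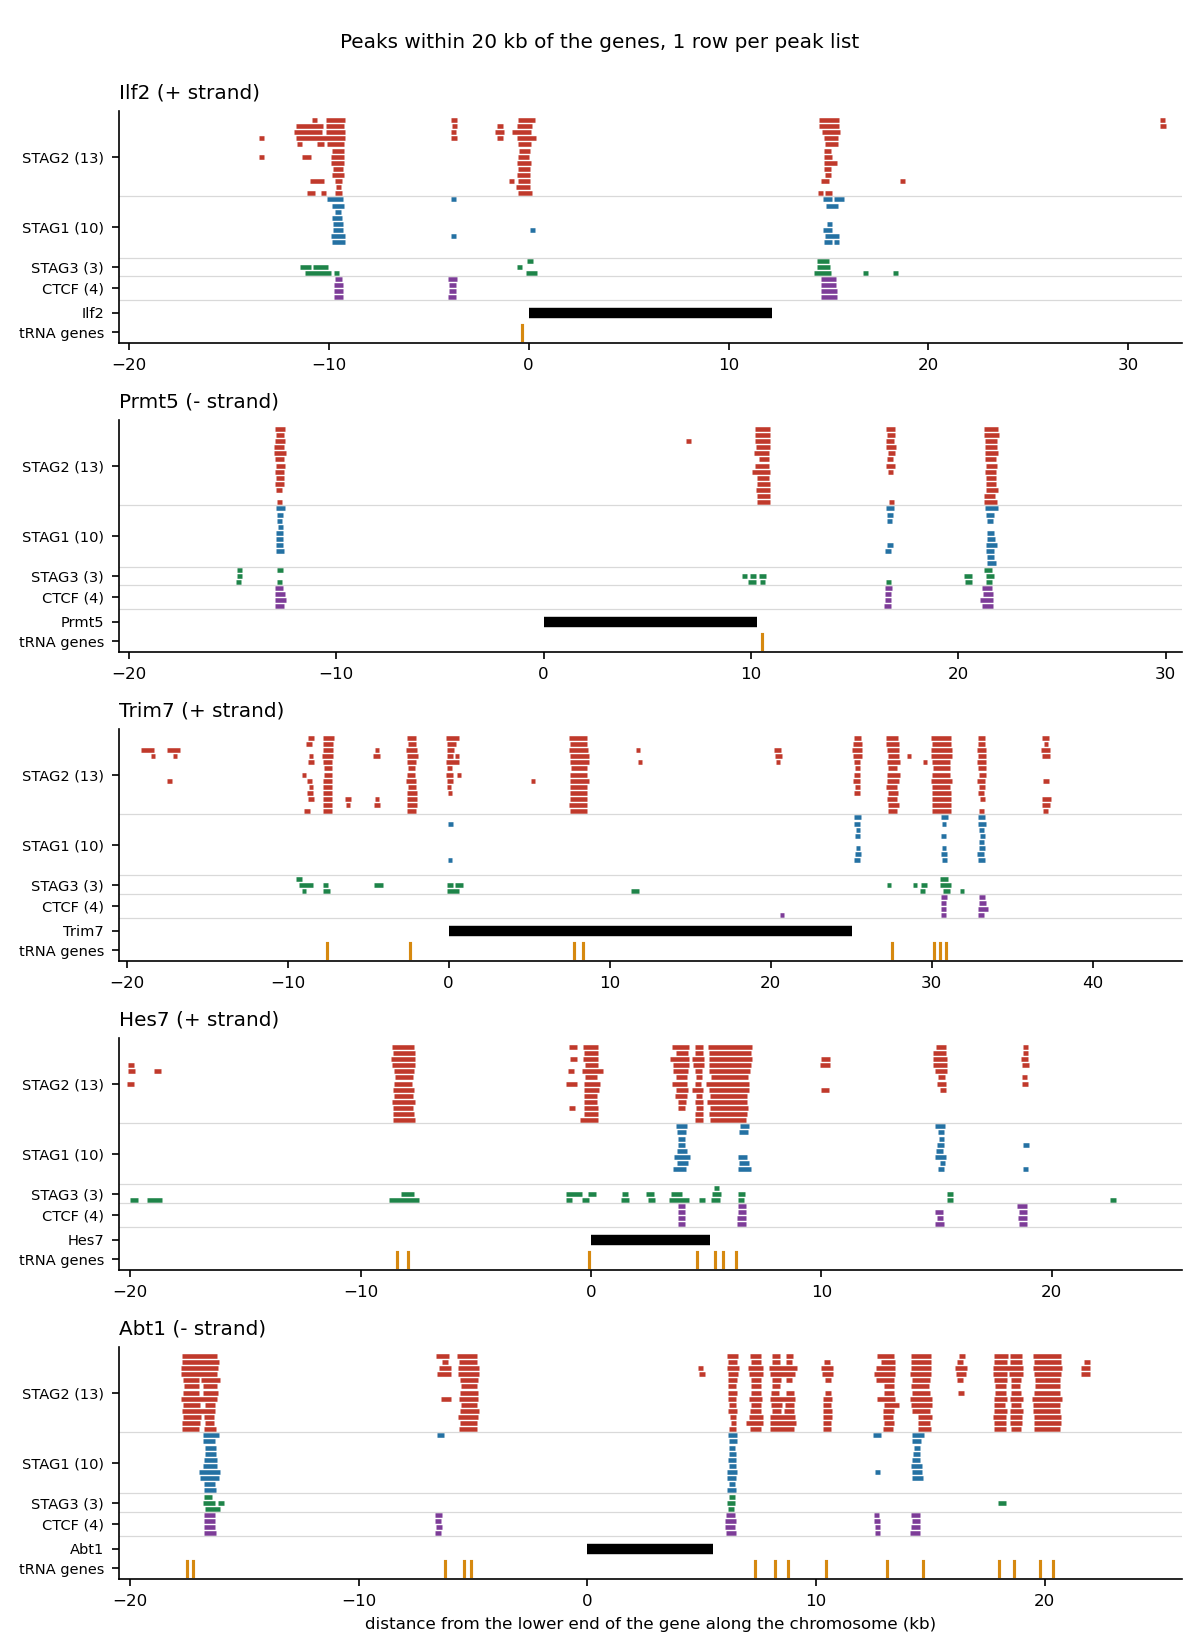
Peaks of the 5 windows by distance from the lower end of each gene along the chromosome (kb), with 1 row for each of the 30 lists, the gene as a black bar and tRNA genes as orange ticks. Columns of 13 STAG2 bars stand over 29 of the 32 tRNA genes and over some CTCF sites, while STAG1 bars stand mostly over CTCF bars.

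Ilf2 (chr3:90476201-90488379, plus strand) had its strongest STAG2 peak at its own start, over n-TMcat11 (chr3:90475860-90475931), which ends 270 bases before the gene. Fold enrichment there was 437 and 531 in ESC, 393 and 460 in EpiLC, 191, 141 and 153 in d2PGCLC, 477, 175 and 262 in d4c7PGCLC, and 295, 243 and 222 in GSC. It was the highest of the whole list in 5 of 13 lists, in ESC, d4c7PGCLC and GSC, and stood at rank 143, 32 and 206 in d2PGCLC. The summit lay 28 to 37 bases from the tRNA gene in all 13 lists, on the side of Ilf2. The peaks were 547 to 964 bases wide, against a list median of 315 to 408.

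STAG1 met this place once: the second d2PGCLC list had a peak at chr3:90476286-90476535 with a fold enrichment of 3.86, whose edge shared bases with the STAG2 peak. Under the rule of 1 shared base, Ilf2 therefore had no STAG2-only site in d2PGCLC. STAG3 peaks of GSC stood beside the tRNA gene, or over its edge in list 2, in all 3 lists, with fold enrichments of 4.48, 4.35 and 5.48. Their summits lay 290, 127 and 376 bases from n-TMcat11, farther than those of STAG2. The STAG2 interval at chr3:90466500-90466856, 572 bases from Npr1 (a natriuretic peptide receptor gene), overlapped a shared CTCF site, meaning one called in all 4 CTCF lists. STAG2 was called there in 13 lists and STAG1 in 8 of 10, with none in GSC, where it was STAG2-only. STAG3 had its highest fold enrichment of the window, 7.67, 12.1 and 13.2, past the far end of Ilf2, at a shared CTCF site in an interval (chr3:90490852-90491794) that reaches into Snapin.

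Prmt5 (chr14:54507182-54517470, minus strand) carried 1 STAG2-only site in all 5 cell types, at its start over n-TRacg6 (chr14:54517696-54517768), 226 bases away. Fold enrichment was 411 and 323 in ESC, 574 and 492 in EpiLC, 151, 79.2 and 119 in d2PGCLC, 435, 185 and 219 in d4c7PGCLC, and 256, 217 and 198 in GSC. This was rank 3 to 14 of the list in all cell types but d2PGCLC, where it was rank 495, 886 and 695. Summits lay 4 to 20 bases from the tRNA gene. STAG3 lists 2 and 3 had peaks over the tRNA gene, at 4.58 and 5.08, and list 1 had none. The window's 3 shared CTCF sites all lay away from the tRNA gene, and each carried STAG1 in at least 1 list and STAG3 in at least 1 list. The single STAG1 peak of each GSC list was at one of them, with summits 10958 and 10973 bases from the tRNA gene and fold enrichments of 15.0 and 15.9.

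Trim7 (chr11:48826138-48851192, plus strand) had 8 tRNA genes in its window, 2 of them inside the gene. The pair inside, n-TKctt10 and n-TAtgc9 for lysine and alanine, shared 1 STAG2 interval (chr11:48833621-48834869) that was STAG2-only in all 5 cell types and carried no STAG1, STAG3 or CTCF peak in any list. Fold enrichment of the window's strongest STAG2 peak was 308 and 492 in ESC, 606 and 534 in EpiLC, 156, 109 and 137 in d2PGCLC, 467, 190 and 228 in d4c7PGCLC, and 251, 223 and 233 in GSC. That peak was the pair in 10 lists and n-TTtgt2, a threonine tRNA gene past the gene's end, in 3. It stood at rank 2 to 19 outside d2PGCLC and at rank 418, 205 and 384 in d2PGCLC.

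The start of Trim7 itself showed another pattern. STAG2 peaks there (chr11:48825992-48826887) were called in 10 of 13 lists, all of ESC, EpiLC, d2PGCLC and d4c7PGCLC and none of GSC, with a highest fold enrichment of 16.1. STAG1 covered that place in 2 of 10 lists and STAG3 in 2 of 3, with a highest STAG3 fold enrichment of 8.80. Past the end of the gene a cluster of 3 tRNA genes, n-TPtgg4, n-TVaac7 and n-TLaag6, overlapped a shared CTCF site at n-TLaag6. STAG2 covered the cluster in 13 lists at 77.3 to 341, STAG1 in 6 at no more than 12.2, STAG3 in all 3 at no more than 8.24 and CTCF in all 4 at 8.93 to 11.7. It was STAG2-only in GSC and in no other cell type.

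Hes7 (chr11:69118906-69124054, plus strand) lay between tRNA genes at both ends. One end held n-TGgcc5 for glycine, 42 bases before the gene, and the other held n-TLtag3, n-TQctg6 and n-TKctt27 for leucine, glutamine and lysine, beginning 187 bases past it. Fold enrichment of the strongest STAG2 peak was 311 and 264 in ESC, 413 and 355 in EpiLC, 116, 93.1 and 104 in d2PGCLC, 387, 150 and 195 in d4c7PGCLC, and 288, 245 and 194 in GSC. The peak before the gene was the stronger in 6 lists and the cluster past it in 7. Ranks were 2 to 45 outside d2PGCLC, against 1295, 448 and 1106 in d2PGCLC. The interval at n-TGgcc5 was STAG2-only in all 5 cell types, and the cluster past the gene in EpiLC and GSC, since STAG1 met its CTCF end in 5 lists of the other types.

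A further tRNA gene, n-TRtct4 for arginine, lies within Hes7 and was weaker: its STAG2 fold enrichment was 6.56 to 88.2 with a median of 13.6, in all 13 lists. The Hes7 window held 1, 9 and 13 STAG3 peaks in lists 1, 2 and 3, so that the first list stood apart from the others. In all 3 lists the strongest STAG3 peak of the window lay on n-TLtag3, at 5.11, 8.01 and 8.60. The place 242 bases from Per1, a clock gene next to Hes7, held n-TTagt5 and n-TScga3 in an interval that was STAG2-only in all 5 cell types, with a median of 67.9.

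Abt1 (chr13:23418361-23423866, minus strand) had no peak of any STAG2, STAG1, STAG3 or CTCF list in its promoter entry (chr13:23423817-23424116). The promoter entry of Hes7 (chr11:69120203-69120502), which begins inside the gene, likewise had none of STAG2, STAG1 or CTCF, and STAG3 in 2 of 3 lists. The 15 tRNA genes of the Abt1 window lay 1780 to 17494 bases from Abt1, 5 before its lower end and 10 past its upper end. The strongest STAG2 peak covered n-TIaat8 and n-TAcgc10 for isoleucine and alanine (chr13:23437822-23439137), 13956 bases from Abt1, in all 13 lists. Fold enrichment was 378 and 328 in ESC, 550 and 488 in EpiLC, 116, 71.5 and 106 in d2PGCLC, 279, 147 and 147 in d4c7PGCLC, and 269, 218 and 193 in GSC. Outside d2PGCLC this was rank 4 to 32, and in d2PGCLC rank 1302, 1308 and 1036.

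The tRNA genes of the Abt1 window were not all alike. n-TVcac2, a valine tRNA gene 6212 bases from Abt1, was covered in 5 of 13 STAG2 lists and in none of GSC, at no more than 16.5. Of the tyrosine tRNA genes, n-TYgta6 was covered in 11 lists and n-TYgta5 in 12. The others of the window were covered in all 13, with medians of 19.6 to 218. STAG3 covered 1 of the 15, n-TKctt11, in 1 list. STAG1 covered 1, n-TYgta7, in 4 lists and in none of GSC, where the site was STAG2-only. The shared CTCF site between Abt1 and n-TYgta3 (CTCF fold enrichment 38.4 to 38.9) carried STAG1 in both GSC lists, at 8.14 and 8.78, and STAG3 in all 3, at 7.03, 8.46 and 9.78.

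**Figure D2:**
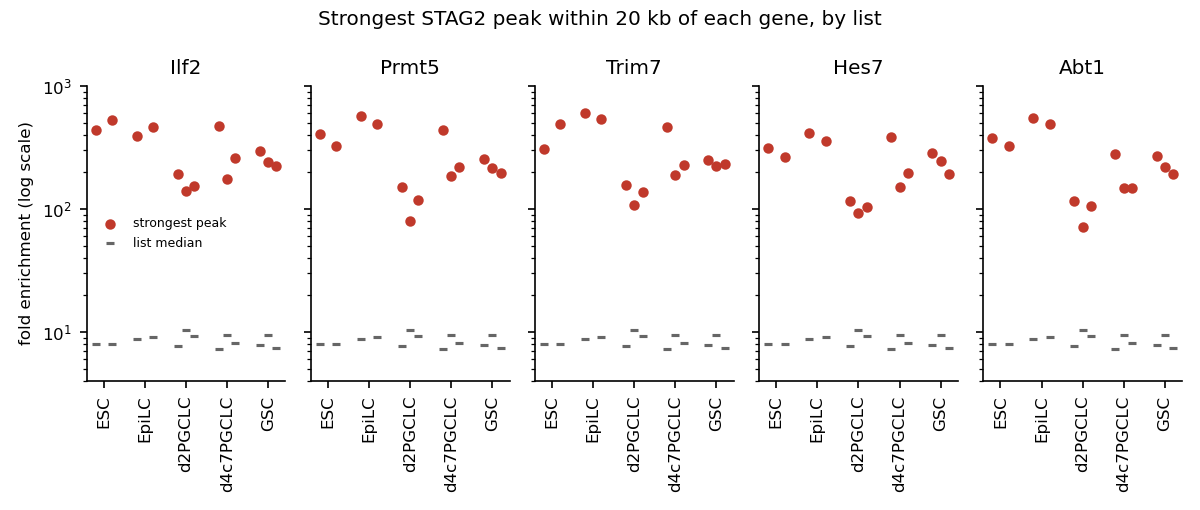
Fold enrichment (log axis) of the strongest STAG2 peak within 20 kb of each gene, 1 point per list by cell type, with the median of the same list as a grey bar. The points lie between 71.5 and 606, and the list medians between 7.26 and 10.3. Points of d2PGCLC are the lowest of every panel except at Ilf2, where 1 d4c7PGCLC list lies among them.

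Over all 5 windows, STAG2 peaks on a tRNA gene had a median fold enrichment of 110 (281 peaks), against 10.6 for those off one (222 peaks). Their median widths were 674 and 392.5 bases. STAG1 peaks showed no such gap, at 10.5 on a tRNA gene (10 peaks) and 9.91 off one (108 peaks). STAG3 peaks had 5.96 on (16 peaks) and 5.67 off (61 peaks). Peaks of 1 place recur in many lists and are not replicates, and STAG2 strength chose the genes, so these medians are a description.

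**Figure D3:**
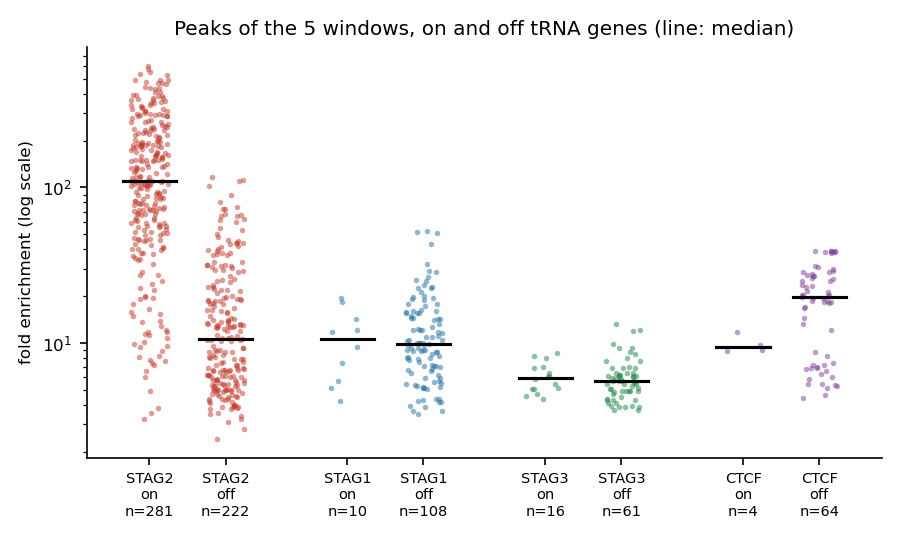
Fold enrichment (log axis) of every peak in the 5 windows, on and off tRNA genes, by protein, with the median as a line. STAG2 peaks on tRNA genes reach 606 with a median of 110, while all STAG1, STAG3 and CTCF peaks lie at 52.1 or below.

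Peak summits gave a finer position. At the 21 STAG2-only loci that hold a tRNA gene, the STAG2 summit lay within 100 bases of a tRNA gene in 280 of 282 peaks, with a median distance of 21 bases. It lay inside the tRNA gene in 23 of them. STAG3 peaks on the same loci had a median distance of 104 bases, with 12 of 25 within 100 bases. STAG1 peaks had a median of 239 bases and 6 of 25 within 100, and CTCF peaks had 265 bases and 4 of 20 within 100. The loci are STAG2 intervals without STAG1 in at least 1 cell type, and peaks of other proteins count there from 1 shared base, so the choice of loci bears on these distances and they are a description.

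**Figure D4:**
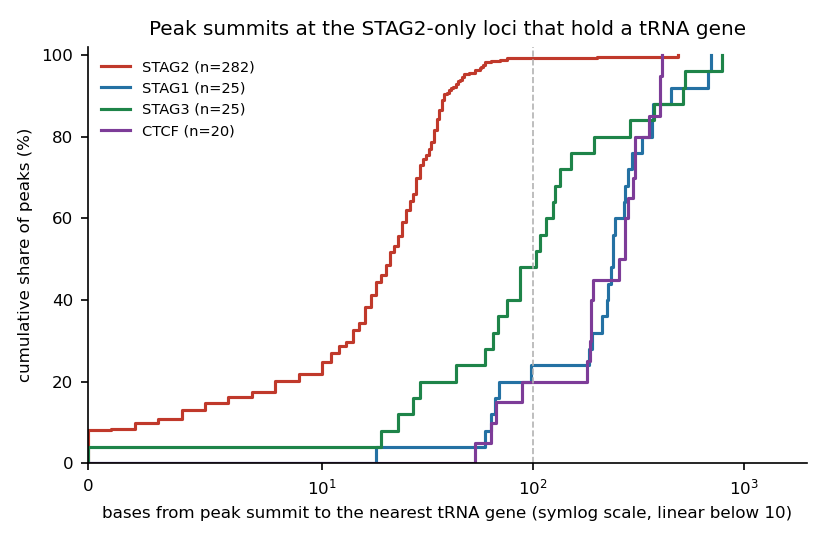
Cumulative share of peaks (%) by distance from the summit to the nearest tRNA gene (bases, on a symlog axis that is linear below 10), for all peaks on the 21 loci. The STAG2 curve passes 99.3% at 100 bases (dashed line), against 48.0% for STAG3, 24.0% for STAG1 and 4 of 20 peaks for CTCF.

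Counted by cell type, all 5 genes had a STAG2-only site in the window in each type but d2PGCLC, where 4 did. Of all protein-coding genes, the share with such a site was 55.5% for ESC, 77.1% for EpiLC and 40.2% for d2PGCLC. It was 13.7% for d4c7PGCLC and 14.1% for GSC, and 2.8% had one in all 5 types. Since these sites chose the genes, nothing is read from the counts. Of the members' sites, 16 of 22 in ESC lay on a tRNA gene, against 0.686% of all 24336 such sites. In EpiLC it was 18 of 31, against 0.387% of 47302. The counts were 16 of 18 in d2PGCLC, against 1.33% of 12475, and 16 of 17 in d4c7PGCLC, against 5.97% of 2813. In GSC 21 of 23 did, against 6.53% of 2864. The genes were chosen for strong STAG2-only sites, so these shares are a description as well. Over the whole genome, STAG2-only sites on a tRNA gene numbered 166 to 187 per cell type, while all sites numbered 2813 to 47302.

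Merged over cell types, the windows held 40 loci, 21 with a tRNA gene and 19 without. Over the whole genome, 0.314% of the 63674 STAG2-only sites held a tRNA gene. Those with one were called in all 13 STAG2 lists at 19 of 21 loci, and 13 were STAG2-only in all 5 cell types. Of the 19 loci without a tRNA gene, 1 was called in all 13 lists and none was STAG2-only in all 5 cell types. Their median fold enrichment was 3.68 to 44.2, and 15 of them were STAG2-only in 1 cell type. The member was the nearest protein-coding gene for 19 of the 21 loci with a tRNA gene and 8 of the 19 without. Per1 and Trim41 were nearer to the other 2 loci with a tRNA gene.

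Pooled over cell types and kinds of locus, overlap with CTCF was near that of all STAG2-only sites. Of the 40 loci, 10 overlapped a CTCF site shared by all 4 mutant genotypes (25%), against 21.7% of all 63674 STAG2-only sites. With a tRNA gene it was 5 of 21, and without one 5 of 19. Counted by cell type instead, a smaller share of the members' sites did so than of all sites. It was 1 of 22 in ESC against 9.66%, 5 of 31 in EpiLC against 23.1% and 2 of 18 in d2PGCLC against 23.5%. In d4c7PGCLC it was 0 of 17 against 6.86%, and in GSC 4 of 23 against 54.5%. Also by cell type, 0.599% to 6.42% of all STAG2-only sites on a tRNA gene overlapped a shared CTCF site. Those shares are not a like measure to the 5 of 21 merged loci. All 5 genes had a shared CTCF site in the window, as did 74.7% of protein-coding genes, and the windows held 16 such sites: 3 each at Ilf2, Prmt5 and Hes7, 2 at Trim7 and 5 at Abt1. STAG1 in at least 1 list covered every one of these 16. Of the 118 STAG1 peaks in the windows, 84.7% overlapped a shared CTCF site, against 33.2% of the 503 STAG2 peaks and 29.9% of the 77 STAG3 peaks. Whole STAG1 lists had 69.2% to 98.9% of their peaks at shared CTCF sites, STAG2 lists 37.9% to 85.2% and STAG3 lists 37.4% to 56.4%. CTCF was read in mutant GSC alone, so for the other cell types it is a measure from another line and genotype.

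In GSC, STAG3 peaks of every list lay on 3 of the 23 STAG2-only sites of the 5 genes, against 17.5% of all 2864 such sites. All 3 held a tRNA gene: the start of Ilf2, the cluster past Hes7 and the cluster past Trim7. Without the first STAG3 list the count was 7 of 23. STAG3 in at least 1 list lay on 11 of the 23 (47.8%), against 68.0% of all sites. For sites on a tRNA gene it was 10 of 21 (47.6%), against 58.8% of all 187 in GSC. Shared CTCF sites overlapped 4 of the 23, against 54.5% of all such GSC sites. For sites on a tRNA gene it was 3 of 21 (14.3%), against 6.42% of all 187 in GSC. A low overlap with CTCF beside all sites was thus shared by sites on tRNA genes in general. With STAG3 in at least 1 list, those sites lay between the members' sites and all sites. With STAG3 of every list, 16.6% of the 187 overlapped, near the 17.5% of all sites. A peak of every STAG3 list anywhere in the window was found for 5 of the 5 genes, against 50.8% of protein-coding genes. For STAG1 in GSC the same held for 2 of the 5, Prmt5 and Abt1, against 32.7%.

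The number of STAG3 peaks in the 5 windows together was 10, 32 and 35 in the GSC lists, against 37, 28 and 34 STAG2 peaks. STAG3 averaged 25.7 ± 13.7 and STAG2 33.0 ± 4.58 peaks per list (SD, n = 3 each). The groups overlapped, and the difference of -7.33 peaks was not larger than the spread (two-sided exact permutation test, p = 0.6, where 0.1 is the lowest this design allows). It rested on the first STAG3 list, without which the difference was 0.5 peaks. With the STAG lists cut to equal length (the 9641 strongest peaks of each), STAG3 averaged 6.67 ± 2.52 and STAG2 26 ± 1 peaks (SD, n = 3 each). The difference was then -19.3 and the groups did not overlap, at the lowest p the design allows (exact permutation test, p = 0.1). Strong STAG2 peaks chose these windows, and the cut keeps the strongest peaks of each list. Neither p-value can therefore separate a difference between STAG3 and STAG2 from that choice, and both counts are a description. STAG3 peak names point to another working directory, so the antibody and a separate run of the peak caller cannot be told apart.

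The pattern was not confined to these windows. STAG2 covered 236 of the 408 nuclear tRNA genes in all 13 lists (57.8%): 29 of 32 in the windows (90.6%) and 207 of 376 elsewhere (55.1%). Per list, STAG2 covered 59.8% to 66.7% of all tRNA genes, STAG1 0% to 3.68%, STAG3 11.5% to 33.1% and CTCF 3.68% to 4.17%. The windows were chosen for STAG2, so their higher share is no test. The tRNA genes elsewhere are those that the choice left out, and n-TVcac9 among them lies just past the Abt1 window. They are therefore no separate check.

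**Figure D5:**
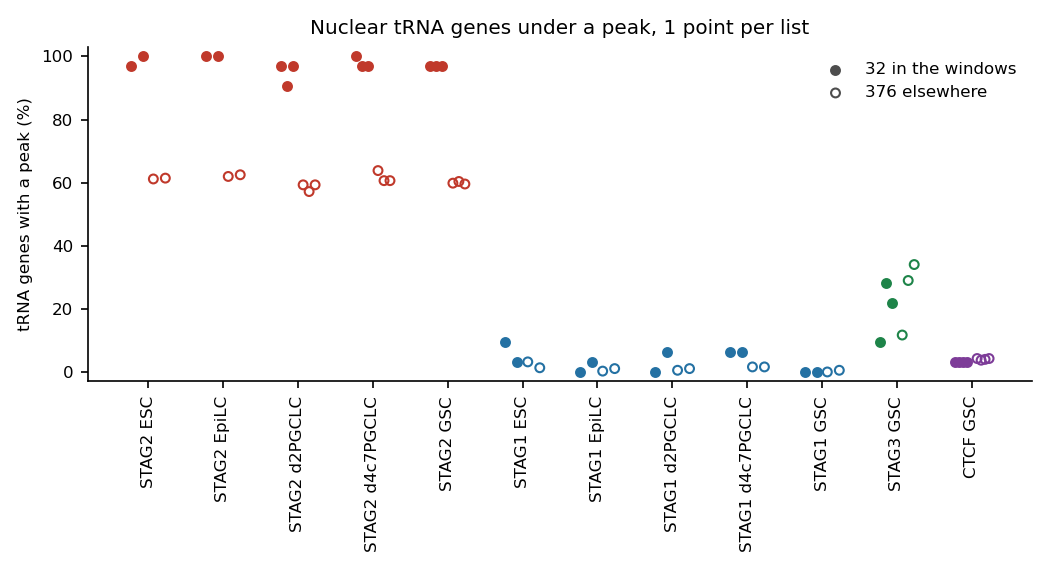
Share of nuclear tRNA genes (%) under a peak, 1 point per list by protein and cell type, for the 32 in the windows (filled) and the 376 elsewhere (open). STAG2 lists cover 90.6% to 100% of those in the windows and 57.2% to 63.8% of those elsewhere, STAG1 lists no more than 9.38% of either, and STAG3 lists 9.38% to 34.0%.

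Among the 100 STAG2 peaks of highest fold enrichment per list, 43 and 48 lay on a tRNA gene in the ESC lists and 83 and 75 in the EpiLC lists. The d4c7PGCLC lists had 90, 56 and 78, and the GSC lists 91, 94 and 74. The 3 d2PGCLC lists had 0, 1 and 0, and 99 to 100 of the top 100 overlapped a shared CTCF site. In the STAG1, STAG3 and CTCF lists none of the top 100 lay on a tRNA gene. The d2PGCLC lists still covered 244 to 254 of the 408 tRNA genes, and the members' sites there had lower ranks, as given above for each gene. Whether this order within the d2PGCLC lists comes from the cells or from the libraries was not tested.

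Other genes shared the pattern. Of 727 protein-coding genes with STAG2-only sites in the same cell types as a member, those with the highest median percentile of fold enrichment over the 13 lists were Trim41, Npr1, Snapin, Shf and Aurkb. The first 3 share peaks with the Trim7 or Ilf2 windows. Among genes lying outside the 5 windows the order was Shf, Aurkb, Borcs6, Olfr750 and Btn1a1. Their median percentiles were 99.97 to 99.98, against 99.95 to 99.99 for the members. These are not all separate places. The 20 kb beside Btn1a1 overlap the Abt1 window and hold its strongest STAG2 site, and the windows of Aurkb and Borcs6 overlap each other. All of the 20 most alike had a tRNA gene within 20 kb, as did 22.0% of the 727.

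Known partners and relatives of the members were read in the same way. Of 8 such genes, Wdr77, Clns1a, Riok1, Gyg, Trim41, Hes1, Hes5 and Esf1, STAG2-only sites were in the window of 7 for ESC, 7 for EpiLC, 4 for d2PGCLC, 1 for d4c7PGCLC and 1 for GSC. The median percentile of their strongest STAG2 peak was 64.5, against 71.7 over all protein-coding genes. Trim41, whose window overlaps that of Trim7, was the single one with a tRNA gene within 20 kb and with sites in all 5 cell types. Hes1 and Hes5, repressors related to HES7, had median percentiles of 91.8 and 92.5, and Wdr77, the partner of PRMT5, had a STAG2 peak in 6 of 13 lists.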

How the data were processed

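The members and the lists of genes were chosen with earlier results of these data known, and tRNA genes were annotated after the peaks had been seen. The submitters' processing notes name MACS2, Bowtie2 (2.3.4.1), deepTools (3.5.0), cutadapt (1.9.1), bedtools (2.29.2), Trim Galore (0.4.1) and SAMtools (1.7), and the builds mm10 and GRCm38.p3. Options and control libraries were not given in the sources used here. Per peak, the deposited lists give a fold enrichment (a linear ratio), −log10 of a p-value and of a q-value, and a score, 10 times −log10 q. All deposited peaks had −log10 q of at least 2. CTCF lists were pooled, per the labels and peak names. Depth is unknown. The labels do not say whether replicates were separate cultures, so the p-value covers only how these samples vary, possibly for technical reasons.

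A STAG2-only site was a merged STAG2 interval touched by every STAG2 list and by no STAG1 list of a cell type, by at least 1 base. A shared CTCF site was called in all 4 genotypes. Windows reached 20 kb past either gene end. Genes came from RefSeq GRCm38.p6, whose primary chromosomes have the coordinates of mm10. Gyg matched through the synonym Gyg1. The 8 partners were named for their known link to a member, and 1 further gene of that list is not reported here. Genes of like pattern had STAG2-only sites in the same cell types as a member, and were ordered by the median percentile of their strongest STAG2 peak. Overlaps used Python 3.11.15, pandas 2.3.3 and numpy 2.4.6, with scipy 1.17.1 for the permutation test. They were tested on simulated peaks. Alternatives were another window, q threshold, list length, overlap and site rule, and leaving out each list.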

Additional observations from a re-analysis of the deposited data

How the results depend on the processing

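The number of member genes with a STAG2-only site stayed within 1 of the values given in every cell type under a window of 5 kb, −log10 q of at least 5, STAG lists of equal length (9641 peaks), an overlap of 50%, a site rule of at least 2 STAG2 lists, and without any 1 list (5 of 5 throughout, and 4 to 5 in d2PGCLC). STAG3 sites in every list, 3 of 23, were 1 with lists of equal length, 7 with STAG3 in at least 2 lists, and 3 to 7 without 1 list. Loci at shared CTCF sites, 10 of 40, were 4 of 21 with a window of 5 kb, 5 of 22 with lists of equal length, and 10 to 12 without 1 list. The difference between STAG3 and STAG2 peaks was -19.3 with lists of equal length (exact permutation p = 0.1). STAG2 strength chose the windows, so nothing is read from that p-value. Without 1 list the difference was -12 to 0.5, and it reversed to 0.5 without the first STAG3 list. With the replicate block it was -7.33 (exact permutation within pairs, p = 1, lowest possible 0.25). Same-numbered STAG3 and STAG2 lists had correlations of -0.13, -0.23 and 0.16 of their deviations over 21887 genes. Of the 3 STAG3 lists, only the third correlated best with its own number. The numbers thus gave no clear sign of pairing, but 3 lists of unlike length per protein cannot show that the samples were unpaired. The cause of the changes between settings was not tested. Input libraries, labelled for GSC alone, were not analysed here. The samples of the series include no STAG2 antibody in cells without STAG2. List length limits what a missing peak means, and shared reads limit values of single tRNA copies.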
